A study of Mus musculus with 6 samples.

Results

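The genes described here are 10 that are known as markers of reactive astrocytes in mice: Lcn2, Cp, Steap4, Cd44, Ptx3, Tm4sf1, Emp1, Cd109, Sphk1 and Amigo2. They were chosen by symbol, as the probe sets that the platform annotation assigns to one of them, which gave 28 of the 45037 probe sets analysed, for 10 of 18193 named genes. RNA was measured on 6 single-colour arrays, 3 of cerebellar and 3 of neocortical mouse astrocytes, and the comparison asks whether astrocytes of the cerebellum differ from those of the neocortex. The labels name the ICR strain on the neocortical arrays and give no strain on the cerebellar ones, so a difference of region and one of strain cannot be told apart. The labels give no treatment, age, sex or means of isolating or growing the cells, and do not say whether samples of a region came from separate animals, so the p-values speak for the spread of these 6 samples alone, and that spread may be technical.

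Reactive astrocytes are astrocytes that have changed shape and gene expression after injury, inflammation or loss of blood supply. In mice a pan-reactive set of genes rises in several such settings, among them Lcn2, Cp, Steap4 and Cd44. An A1 set, with Amigo2, rises after systemic bacterial lipopolysaccharide, and an A2 set, with Ptx3, Tm4sf1, Emp1, Cd109 and Sphk1, rises after brain ischaemia. Factors of the NF-kappaB, STAT3, C/EBP and AP-1 families are known to take part in such responses.

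RefSeq gave promoter windows for 9 of the 10 genes, all but Cd109, on the mouse build GRCm38.p6. The 250 bases before the start are printed for 3 of them: Ptx3 and Tm4sf1, whose brightest probe sets were the members past the threshold between regions, and Lcn2, the gene with the largest fitted difference in the opposite direction. The windows are chr3:66219637-66219886 on the plus strand, chr3:57301989-57302238 on the minus strand and chr2:32387740-32387989 on the minus strand, each written 5′ to 3′ on the gene's strand. Capitals mark a match on either strand to the kappaB, STAT (TTCNNNGAA), AP-1 (TGANTCA), C/EBP (TTGCNNAA) or TATA box (TATAAA) letters.
Ptx3: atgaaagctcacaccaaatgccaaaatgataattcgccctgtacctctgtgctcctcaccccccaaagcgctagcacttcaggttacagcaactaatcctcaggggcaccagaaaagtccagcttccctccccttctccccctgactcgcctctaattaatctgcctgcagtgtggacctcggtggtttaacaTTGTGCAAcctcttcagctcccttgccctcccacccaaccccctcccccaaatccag
Tm4sf1: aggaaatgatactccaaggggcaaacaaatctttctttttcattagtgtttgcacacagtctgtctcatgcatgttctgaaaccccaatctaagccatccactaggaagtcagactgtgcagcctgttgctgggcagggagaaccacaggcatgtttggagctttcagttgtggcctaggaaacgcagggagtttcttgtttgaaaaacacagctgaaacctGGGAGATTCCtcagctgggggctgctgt
Lcn2: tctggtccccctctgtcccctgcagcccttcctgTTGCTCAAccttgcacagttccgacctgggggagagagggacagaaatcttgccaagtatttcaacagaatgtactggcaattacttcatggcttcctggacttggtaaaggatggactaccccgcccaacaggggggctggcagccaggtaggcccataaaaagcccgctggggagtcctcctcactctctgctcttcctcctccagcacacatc
The Ptx3 window held 1 C/EBP match, starting 57 bases before the gene's start, and the Lcn2 window 1 C/EBP match, starting 216 bases before it. The Tm4sf1 window held 1 kappaB match, starting 28 bases before the start. No motif overlapped another in these 3 windows. Of all 32851 RefSeq promoter windows of the same length, 3.9% held a kappaB match, 7.02% a STAT match, 6.75% an AP-1 match, 9.56% a C/EBP match and 12.4% a TATA box match. A match is a run of letters and says nothing of whether a factor binds there.

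Signal is in arbitrary units after quantile normalization of the deposited intensities, and log2 differences are cerebellar minus neocortical, so that positive ones stand for more signal in the cerebellum. Spearman correlations over all probe sets ran from 0.932 to 0.945 within a region and from 0.922 to 0.933 between the regions. Gapdh control signal at the 3′ end over that at the 5′ end, which reflects how intact the RNA was, stood at 0.913 to 1.07 on cerebellar and 0.865 to 0.883 on neocortical arrays, without overlap (exact permutation p = 0.1, the smallest for 3 against 3). The same ratio for beta-actin overlapped, at 1.42 to 1.62 on cerebellar and 1.35 to 1.44 on neocortical arrays. As deposited, 24 bacterial control probe sets read 2.9 to 269.2, with a 95th percentile of 116.2, and values in that span are near background. All 10 astrocyte markers read above that span on every array. By brightest probe set Aqp4 was higher in cerebellar samples (log2 difference 0.62), and Slc1a3 (-0.80), Aldoc (-0.80) and Fgfr3 (-0.41) were lower. The other 6 did not pass, Gfap among them at -1.11 (adjusted p = 0.0647). Among all tested probe sets, 1 of 3 of Gfap, 1 of 6 of Slc1a3, 1 of 2 of Fgfr3 and 2 of 2 of Aldoc were lower. Of Aqp4 3 of 3 were higher. Microglial markers were also present, with 0 of 12 past the threshold, and their summed signal was 7983, 43400 and 27450 on cerebellar arrays 1 to 3 and 20850, 37040 and 13360 on neocortical arrays 1 to 3. Of 10 fibroblast and meningeal markers 1 was higher and 1 lower in cerebellar samples, and their sum was 120200 to 282400 on cerebellar and 88630 to 140700 on neocortical arrays. Of 10 endothelial markers 7 were too dim to be tested, among them Pecam1 (means 12.6 and 16.5) and Tie1 (16.3 and 16.8), in cerebellar and neocortical samples. Of the 3 tested, Kdr averaged 422.2 in cerebellar and 1269 in neocortical samples and was lower (adjusted p = 0.00296), while Cdh5 (763.7 and 574.9) and Esam (456.6 and 315.5) did not pass. Of 5 tested oligodendrocyte lineage markers Mbp was higher (log2 difference 2.65), and Olig1 (-1.74) and Olig2 (-2.58) were lower. Signal over that list summed to 8414 to 15390 on cerebellar and 31950 to 34940 on neocortical arrays, without overlap. Of 4 tested neuronal markers Syt1 (-0.67) and Gad1 (-1.83) were lower, and of 4 of choroid plexus and ependyma Folr1 (-2.07) was. The others did not pass. Mbp on neocortical and Gad1 on cerebellar arrays were near background. The part of all these cells and of RNA integrity in the results was not tested. In such mixed samples fewer cells of a type and less RNA per cell cannot be told apart.

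Between regions 2 of the 10 genes, Ptx3 and Tm4sf1, were higher in cerebellar astrocytes by limma's adjusted p, none was lower, and 8 did not pass. Of the 28 probe sets 24 were bright enough to be tested, and 2 of the 24 were higher, against 4.95% of all 27022 tested probe sets (lower: 0 of 24, against 5.80%). By brightest probe set, 2 of 10 genes were higher, against 5.40% of 12637 genes, and 0 lower, against 7.47%. At 2 called probe sets the count lies near that background, and it is no result about the genes as a group. The median log2 difference of the 10 genes was 0.17, against -0.0151 over all genes tested. With the array number as a block, 8 of 24 probe sets were higher, against 5.81% of all, and 0 lower, against 6.69%, and 5 of the 8 belonged to Cp. With arrays scaled to a common median in place of quantile normalization, none was higher and 1, of Emp1, was lower. That scaling moved the median log2 difference of all tested probe sets by -0.106. Over all of them it gave 821 higher and 2121 lower in cerebellar samples, while quantile normalization gave 1337 higher and 1567 lower. Every cerebellar array was above every neocortical one for 6 of the 24 probe sets, against 16.6% of all tested, and below for 2, those of Lcn2 and Emp1, against 15.8%.

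**Figure D1:**
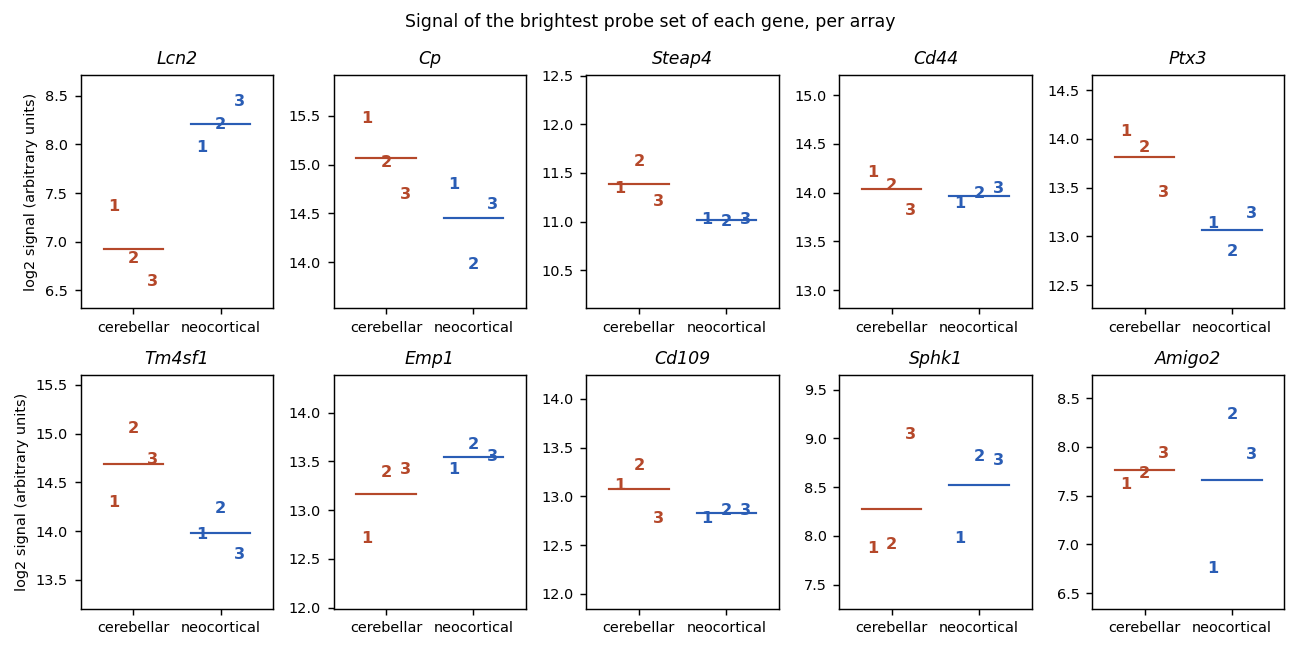
Log2 signal of the brightest probe set of each of the 10 genes; digits are array numbers within a region and lines are group means, with cerebellar arrays on the left and neocortical ones on the right of each panel, and all panels span the same range of log2 units. The digits of Steap4, Ptx3 and Tm4sf1 lie higher in the cerebellar column, those of Lcn2 and Emp1 lower, and the other 5 genes overlap.

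Ptx3 encodes pentraxin 3, a secreted pattern-recognition protein of innate immunity that also binds complement C1q. Its brighter probe set (1418666_at) read 17310, 15370 and 11230 on cerebellar arrays 1 to 3 and 8996, 7338 and 9626 on neocortical arrays 1 to 3. Every cerebellar array was above every neocortical one, with the third cerebellar array closest to them. The fitted log2 difference was 0.74 ± 0.17 (SE), a 1.68-fold higher level in cerebellar samples (95% interval of the log2 difference 0.37 to 1.12, limma adjusted p = 0.0234). The dimmer probe set (1456903_at) read 815.6, 959.5 and 572.8 on cerebellar and 369, 478 and 431 on neocortical arrays. Its groups did not overlap either, and its log2 difference of 0.85 ± 0.24 (SE) had an adjusted p of 0.0557, which was 0.0484 with the array number as a block. The 2 probe sets correlated at 0.869 over the 6 arrays, a description, since they read the same samples. The call of the brighter probe set was lost without cerebellar replicate 2 (adjusted p = 0.0635), without neocortical replicate 1 (0.0678), 2 (0.0895) or 3 (0.0534), under the common-median scaling (log2 difference 0.54, adjusted p = 0.121), with no filter on dim probe sets (0.144) and with no variance trend (0.0885).

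Tm4sf1 encodes a 4-span membrane protein of the L6 family, best known from endothelial and tumour cells. The brightest of its 3 probe sets (1450958_at) read 20070, 33910 and 27350 on cerebellar arrays 1 to 3 and 15980, 19190 and 13860 on neocortical arrays 1 to 3. The groups did not overlap, though the first cerebellar array exceeded the highest neocortical one only slightly. The log2 difference was 0.71 ± 0.19 (SE), a 1.64-fold higher level in cerebellar samples (interval 0.29 to 1.13, adjusted p = 0.0424). The second probe set (1439925_at), at 922.6, 1853 and 1430 on cerebellar and 974.7, 1051 and 1042 on neocortical arrays, overlapped and did not pass (log2 difference 0.40 ± 0.24 SE, adjusted p = 0.327). The third (1448069_at), with means of 351.4 ± 219 and 309.6 ± 80.6 in cerebellar and neocortical samples (SD, n = 3 each), had a log2 difference of -0.03 (SE 0.52, adjusted p = 0.978). All 3 probe sets were highest on cerebellar array 2, the array with the highest summed microglial signal. The 2 dimmer ones, which did not pass, were lowest on cerebellar array 1, the array with the lowest such sum. The brightest was lowest on neocortical array 3 (13860), and on cerebellar array 1 it read 20070, above every neocortical array. The part of microglial signal in the Tm4sf1 values was not tested. The summed endothelial marker signal was 1618, 2222 and 3327 on cerebellar arrays 1 to 3 and 2625, 2715 and 3300 on neocortical arrays 1 to 3, overlapping between regions, and its part in the Tm4sf1 result was not tested. The call was lost without cerebellar replicate 2 (adjusted p = 0.0923) or 3 (0.108), without neocortical replicate 1 (0.122), 2 (0.0584) or 3 (0.151), under the common-median scaling (0.129), with no filter (0.212), with no variance trend (0.127), and with the mean of its probe sets (log2 difference 0.36, adjusted p = 0.466).

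Cp encodes ceruloplasmin, the copper-carrying ferroxidase that astrocytes hold at their surface and that helps iron leave the cell. It had 8 probe sets, all tested, all with a positive log2 difference (0.22 to 0.78) and none past the threshold (adjusted p 0.0648 to 0.408). The brightest (1417494_a_at) read 45400, 33320 and 26530 on cerebellar arrays 1 to 3 and 28490, 16120 and 24580 on neocortical arrays 1 to 3. Cerebellar array 3 lay inside the neocortical range, so the groups overlapped. The log2 difference was 0.61 ± 0.23 (SE), with an interval of 0.09 to 1.14 and an adjusted p of 0.132, and it was 0.40 without cerebellar replicate 1 and 0.38 without neocortical replicate 2. The 8 probe sets moved together, with pairwise correlations of 0.795 to 0.989 over the 6 arrays. All 8 were highest on cerebellar array 1, and 7 of 8 were lowest on neocortical array 2. Cerebellar array 1 had the lowest and neocortical array 2 the second highest summed microglial signal of the 6. Cerebellar array 2, with the highest such sum (43400), had the second highest signal of the 6 on the brightest Cp probe set. The part of microglial signal in the Cp values was not tested. On the dimmer probe set 1417497_at the groups did not overlap, at 5157, 4679 and 3614 on cerebellar and 3456, 2676 and 3133 on neocortical arrays (log2 difference 0.53 ± 0.16 SE, adjusted p = 0.0648). On the brightest probe set array 1 was the highest of each region, but the lowest was array 3 in cerebellar and array 2 in neocortical samples. With the array number as a block 5 of the 8 probe sets passed. The adjusted p was 0.0361 for the brightest, 0.0285, 0.0414 and 0.0468 for 1417496_at, 1417497_at and 1441326_at, and 0.0197 for 1455393_at. With the block and the common-median scaling together only 1455393_at passed (0.0428), and the other 4 had an adjusted p of 0.0653 to 0.162.

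**Figure D2:**
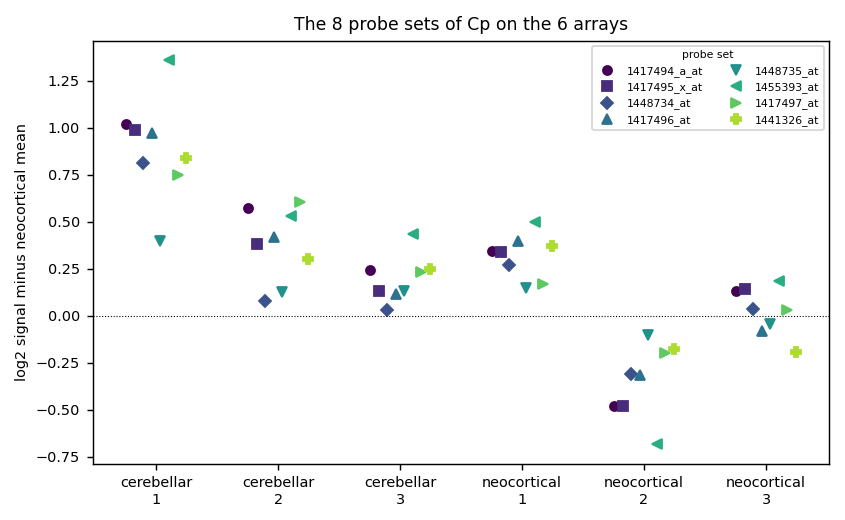
Log2 signal of each of the 8 Cp probe sets minus its own neocortical mean (y axis), on the 3 cerebellar and the 3 neocortical arrays (x axis); each symbol is a probe set. All 8 are highest on cerebellar array 1, and 7 of the 8 are lowest on neocortical array 2.

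Steap4 encodes a membrane metalloreductase that reduces iron and copper ions. Its brighter probe set (1460197_a_at) read 2589, 3146 and 2367 on cerebellar arrays and 2086, 2049 and 2084 on neocortical arrays, without overlap. The neocortical arrays were tightly grouped and the cerebellar ones spread more widely (SD 401 against 20.9). The log2 difference of 0.37 ± 0.13 (SE) did not pass (interval 0.07 to 0.68, adjusted p = 0.116). The dimmer probe set (1425829_a_at) had 784.3, 1083 and 438.9 on cerebellar and 566.2, 445.6 and 338.1 on neocortical arrays, with overlapping groups (log2 difference 0.71 ± 0.34 SE, adjusted p = 0.226). Both were highest on cerebellar array 2.

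Lcn2 encodes lipocalin 2, a secreted protein that binds iron-carrying siderophores and is a widely used marker of strongly reactive astrocytes. Its single probe set (1427747_a_at) read 164.3, 113.5 and 96.5 on cerebellar arrays 1 to 3 and 250.8, 295 and 347 on neocortical arrays 1 to 3. Every cerebellar value was below every neocortical one, and as deposited, all of the cerebellar and 2 of the neocortical values lay inside the span of the bacterial controls, so the size of the difference is uncertain. The log2 difference was -1.28 ± 0.38 (SE), with an interval of -2.13 to -0.43 and an adjusted p of 0.0633, which misses the threshold. The adjusted p was 0.0496 without cerebellar replicate 1 and 0.034 with no trend in the variance, and up to 0.21 where another array was left out. With the floor at the 40th percentile the log2 difference was -0.65 (adjusted p = 0.0869).

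Cd44 encodes the cell-surface receptor for hyaluronan, a matrix polysaccharide. Its 3 tested probe sets disagreed in size. The brightest (1434376_at) read 18920, 17260 and 14420 on cerebellar and 15120, 16250 and 16820 on neocortical arrays, with a log2 difference of 0.06 ± 0.11 (SE, interval -0.18 to 0.31) that was -0.15 under the common-median scaling. The groups overlapped, and the lowest of the 6 arrays was cerebellar array 3. By contrast 1423760_at, at 13610, 14110 and 13590 on cerebellar and 11210, 10210 and 11880 on neocortical arrays, did not overlap. Its log2 difference of 0.31 ± 0.09 (SE) had an adjusted p of 0.0519, which was 0.0469 where the floor was the 40th percentile and 0.0444 with the dimmest 60% of probe sets left out. Under the common-median scaling its log2 difference was 0.0976 (adjusted p = 0.676), and leaving out 1 array gave an adjusted p of 0.0797 to 0.159. The third probe set, 1452483_a_at, averaged 3941 ± 912 in cerebellar and 3851 ± 495 in neocortical samples (SD, n = 3 each, adjusted p = 0.976). Another, 1443265_at, was too dim to be tested: it read 66.6, 71 and 58.1 on cerebellar and 10.4, 9.87 and 12.7 on neocortical arrays, apart but all under the 95th percentile of the bacterial controls. Over the 3 tested probe sets the pairwise correlations were 0.212 to 0.89.

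Emp1 encodes epithelial membrane protein 1, a small tetraspan protein of the PMP22 family. Its bright probe set (1416529_at) read 6674, 10690 and 10930 on cerebellar and 10960, 13060 and 12010 on neocortical arrays. The groups did not overlap, but cerebellar arrays 2 and 3 lay just under the neocortical ones, and array 1 was far lower. The log2 difference of -0.38 ± 0.18 (SE) did not pass (interval -0.79 to 0.03, adjusted p = 0.217), and it was -0.15 without cerebellar replicate 1. Under the common-median scaling it passed, at -0.61 (adjusted p = 0.0419), or -0.51 relative to the shift of all probe sets. The other probe set of Emp1 was too dim to be tested, at 24.4 to 69.1 on cerebellar and 24.6 to 83.7 on neocortical arrays.

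Cd109 encodes a GPI-anchored protein of the alpha-2-macroglobulin family that acts as a co-receptor restraining TGF-beta signalling. Its brighter probe set (1436346_at) read 8887, 10240 and 7018 on cerebellar and 7003, 7392 and 7418 on neocortical arrays. The groups overlapped through cerebellar array 3, and the log2 difference of 0.24 ± 0.13 (SE) did not pass (interval -0.06 to 0.55, adjusted p = 0.288). The second (1425658_at) had a log2 difference of 0.08 (interval -0.27 to 0.43). Both were highest on cerebellar array 2, as for Steap4 and Tm4sf1.

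Sphk1 encodes sphingosine kinase 1, which makes the lipid mediator sphingosine 1-phosphate, and Amigo2 a leucine-rich-repeat adhesion protein. The brighter Sphk1 probe set (1451596_a_at) read 233.3, 241.4 and 525.6 on cerebellar and 251.4, 450.3 and 437 on neocortical arrays, widely spread in both regions (log2 difference -0.25 ± 0.39 SE, interval -1.13 to 0.64, adjusted p = 0.74). That of Amigo2 (1434601_at) read 196.5, 211.8 and 244.8 on cerebellar and 107.7, 321.2 and 241.7 on neocortical arrays (log2 difference 0.10 ± 0.45 SE, interval -0.92 to 1.11, adjusted p = 0.922). The groups overlapped for both genes, both had values inside the span of the bacterial controls, and no difference was detectable with 3 arrays a region. A second probe set of each was too dim to be tested, at 31.9 to 136.4 on cerebellar and 11.6 to 105.6 on neocortical arrays for Sphk1, and 30.8 to 79.1 on cerebellar and 51.4 to 273.3 on neocortical arrays for Amigo2.

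**Figure D3:**
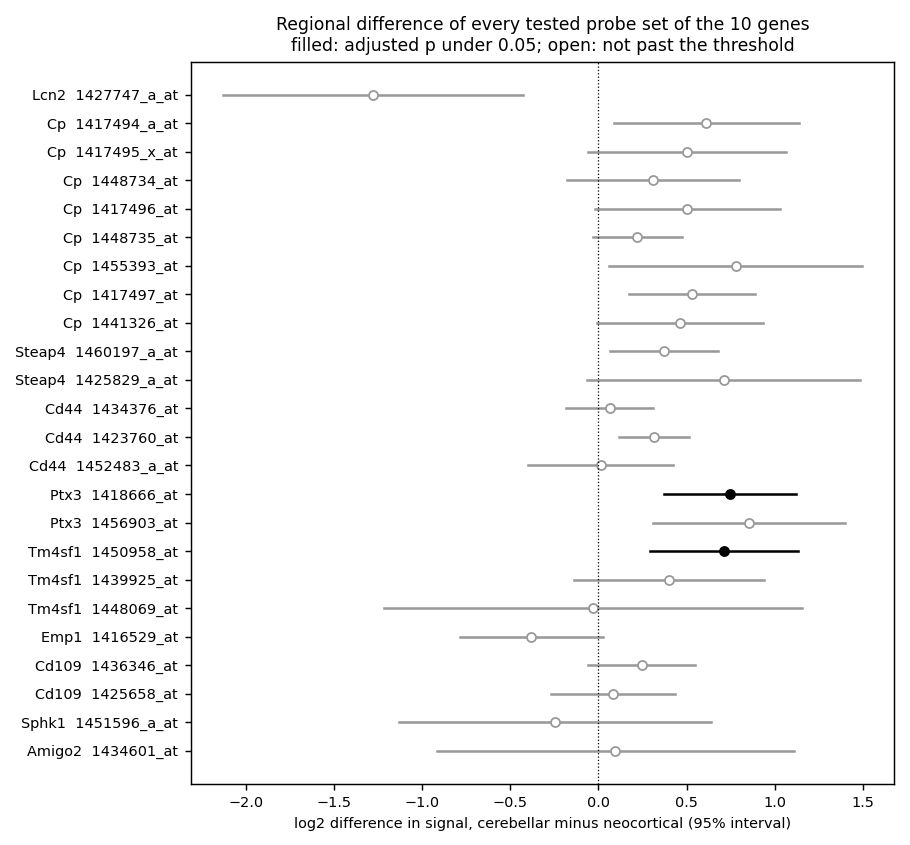
Fitted log2 difference in signal, cerebellar minus neocortical, with its 95% interval (x axis), for the 24 tested probe sets of the 10 genes (y axis); filled points have an adjusted p under 0.05. The brightest probe sets of Ptx3 and Tm4sf1 are filled, all 8 of Cp lie right of zero, and Lcn2 lies farthest left.

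The pan-reactive, A1 and A2 lists together hold 37 genes, the 10 above included, and 34 of them were measured and tested here. Cerebellar astrocytes had more signal for 6 of the 34, against 5.40% of all genes, and less for 2, against 7.47%. The other 26 did not pass, and the median log2 difference of the 34 was 0.17. With the array number as a block 9 were higher and 3 lower, against 5.81% and 6.69% of all tested probe sets. Under the common-median scaling 3 were higher and 4 lower, against 821 and 2121 of all 27022 tested probe sets. In both, counts of genes stand against shares of probe sets, which are not alike. As reported, 4.95% of probe sets were higher and 5.80% lower, against 5.40% and 7.47% of genes. With no filter on dim probe sets none passed. Of the 13 pan-reactive genes 3 were higher and 1 lower, against 5.40% and 7.47% of all genes. The metalloproteinase inhibitor Timp1 read 9395, 6553 and 8398 on cerebellar and 2693, 1889 and 3396 on neocortical arrays (log2 difference 1.63 ± 0.21 SE, adjusted p = 0.00201). Osmr, the oncostatin M receptor, had a log2 difference of 0.53 (adjusted p = 0.00777) and the sphingosine 1-phosphate receptor S1pr3 one of 0.42 (adjusted p = 0.0116), and both calls were lost under the common-median scaling (adjusted p = 0.137 and 0.0806), that of S1pr3 also without neocortical replicate 3 (0.0627). The serpin Serpina3n read 787.9, 1361 and 554.5 on cerebellar and 2452, 2691 and 3162 on neocortical arrays (log2 difference -1.71 ± 0.29 SE, adjusted p = 0.00716). A probe set of the intermediate filament gene Vim was the brightest on every array, which quantile normalization sets to one value. That probe set could not be compared, yet it counts above among the 34 tested genes and the 26 that did not pass. None of the 3 tested probe sets of Vim passed. As deposited the brightest one read 151700, 169500 and 152600 on cerebellar and 137500, 136000 and 125800 on neocortical arrays.

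None of the 9 measured A1 genes passed in either direction, where 5.40% of all genes were higher and 7.47% lower. The brightest non-members, the matrix gene Fbln5 and the complement inhibitor Serping1, had log2 differences of -0.30 (adjusted p = 0.439) and -0.17 (adjusted p = 0.701), and Fbln5 passed without neocortical replicate 2 (0.0401). Of the 12 A2 genes 3 were higher, Ptx3, Tm4sf1 and the annexin partner S100a10, against 5.40% of all genes. The gene of a glycosyltransferase of lactoseries glycolipids, B3gnt5, was the 1 that was lower, against 7.47%. S100a10 read 21730, 25960 and 25410 on cerebellar and 16750, 13110 and 15100 on neocortical arrays (log2 difference 0.70 ± 0.11 SE, adjusted p = 0.00534). B3gnt5 read 2348, 1839 and 1384 on cerebellar and 2837, 2934 and 2962 on neocortical arrays (log2 difference -0.68 ± 0.18 SE, adjusted p = 0.0464), and 1 of its 2 tested probe sets passed. The call of B3gnt5 was lost without cerebellar replicate 2 or 3 or any 1 neocortical array (adjusted p 0.0843 to 0.141). Whether the A2 genes differed from the A1 genes was not tested.

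**Figure D4:**
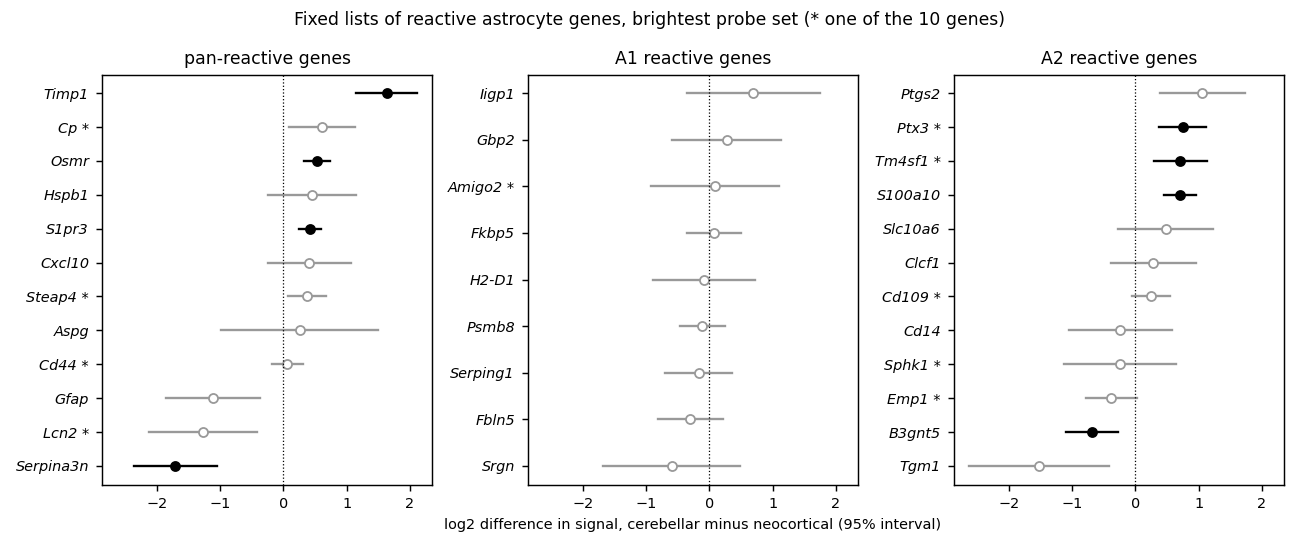
Fitted log2 difference in signal, cerebellar minus neocortical, with its 95% interval (x axis), for the tested pan-reactive, A1 and A2 genes by brightest probe set (y axis, Vim left out); filled points have an adjusted p under 0.05 and asterisks mark the 10 genes. Timp1 is farthest right and Serpina3n farthest left in the pan-reactive panel, no A1 point is filled, and 4 of 12 A2 points are.

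Counts in the iron-handling, hyaluronan and sphingosine 1-phosphate lists lay near the share of all genes by brightest probe set, 5.40% higher and 7.47% lower. Of 15 tested iron-handling genes, which include Cp, Steap4 and Lcn2, 1 passed as higher in the cerebellum and 2 as lower, with a median log2 difference of 0.01. The metalloreductase Steap2 had a log2 difference of 0.58 (adjusted p = 0.0437), and 1 of its 4 tested probe sets passed. The endosomal ferrireductase Steap3 had one of -1.81 (adjusted p = 0.0273), with 44.8, 154.8 and 124.5 on cerebellar and 404, 367 and 349.2 on neocortical arrays, the first value at the floor. Aco1, whose protein doubles as an iron-responsive RNA-binding protein, had -0.56 (adjusted p = 0.0133), and both of its tested probe sets passed. Without any 1 neocortical array Steap3 and Steap2 were lost (adjusted p 0.0935 to 0.133), and Steap2 also without cerebellar replicate 1 (0.0613) or 3 (0.102). Steap2 was lost too under the common-median scaling, with no filter, with no variance trend and with the mean of its probe sets. It passed in 7 of 17 alternatives, with an adjusted p of up to 0.339. Of 10 tested hyaluronan and Cd44 partner genes 1 was lower and none higher. It was ezrin (Ezr), which links membrane proteins such as CD44 to actin, at -0.31 ± 0.07 (SE, adjusted p = 0.0274). Of its 2 tested probe sets 1 passed, and the call was lost without cerebellar replicate 2 or 3 or any 1 neocortical array (0.055 to 0.113). Moesin (Msn), a relative of ezrin, had a log2 difference of 0.003 (adjusted p = 0.986), which turned to -0.0316 in the deposited values and -0.198 under the common-median scaling.

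Of 12 sphingosine 1-phosphate genes, S1pr3 was higher and the lipid phosphatase gene Plpp3 lower in cerebellar astrocytes (log2 difference -0.38, adjusted p = 0.0309), and the call of Plpp3 was lost without cerebellar replicate 1 or 3 or any 1 neocortical array (0.0617 to 0.11). Of 11 tested genes in the families of the members, some members included, 3 were higher and 2 lower, against 5.40% and 7.47% of all genes. Ptx3 and Tm4sf1 themselves were among the 3 higher ones. Of the 6 that are no members 1 was higher and 2 were lower. In the family of Emp1, Emp3 read 6899, 7738 and 10620 on cerebellar and 4659, 3854 and 4894 on neocortical arrays (log2 difference 0.90 ± 0.17 SE, adjusted p = 0.0109), while Pmp22, a myelin protein gene, had a log2 difference of -0.43 (adjusted p = 0.0484). A2m, the protease inhibitor related to Cd109, was lower, at 10890, 19420 and 19670 on cerebellar and 25730, 27980 and 31770 on neocortical arrays (log2 difference -0.82 ± 0.21 SE, adjusted p = 0.0382). A2m was lost without any 1 neocortical array (adjusted p 0.083 to 0.137), Pmp22 likewise and without cerebellar replicate 1 or 3 (0.103 to 0.146), and Emp3 without neocortical replicate 2 (0.0501).

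Of 19 tested genes of inflammatory signalling known to act upstream of reactive genes, 4 were higher in cerebellar astrocytes and none lower by brightest probe set, against 5.40% and 7.47% of all genes, with a median log2 difference of 0.22. Under the common-median scaling 2 of the 4, Osmr and Socs3, lost their call. The 4 were the receptors Osmr, counted above among the pan-reactive genes, Il1r1 and Lifr, and the feedback inhibitor Socs3, the last named after its value was seen. Of dimmer probe sets, 1 of Jak2 was lower and 1 of Il6st higher, both also named after their values were seen. Il1r1, the interleukin 1 receptor, read 1121, 1316 and 1265 on cerebellar and 448.5, 705.8 and 604.1 on neocortical arrays (log2 difference 1.10 ± 0.20 SE, adjusted p = 0.0108). Lifr, the leukaemia inhibitory factor receptor, had a log2 difference of 0.79 (adjusted p = 0.0132) and Socs3 one of 0.47 (adjusted p = 0.049). Lifr was lost without neocortical replicate 1 (0.0593) or 3 (0.0509), and Socs3 without cerebellar replicate 1 or 3 or any 1 neocortical array (0.0826 to 0.162). The transcription factor genes Stat3, at 14150 ± 678 and 13100 ± 1830, and Rela, at 6581 ± 704 and 6566 ± 448, in cerebellar and neocortical samples (SD, n = 3 each) did not pass, and are likewise named after their values were seen.

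The members did not share one pattern over the 6 arrays. Ptx3 and Cp correlated at 0.913, Steap4 and Cd109 at 0.906 and Ptx3 and Tm4sf1 at 0.535, while Lcn2 correlated with Tm4sf1 at -0.897 and Cp with Emp1 at -0.884. These are descriptions over 6 arrays of 2 regions, which share samples and scaling. Among 12315 other genes, the signal most like that of Ptx3 was Dhx57, a helicase gene (Pearson r 0.9978), and Scara5, a scavenger receptor gene whose product takes up ferritin (0.9918). An r takes no account of size, and the log2 difference was 0.19 for Dhx57 against 0.74 for Ptx3. An r picked as the highest of so many genes over 6 arrays is also high by selection. Among the signals most like that of Tm4sf1 was Xpot, a tRNA export factor gene (0.9944). None of Dhx57, Scara5 and Xpot passed between regions (adjusted p 0.0548 to 0.424). Scara5 did pass in 3 of 17 alternatives, among them without cerebellar replicate 3 (0.0229).

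**Figure D5:**
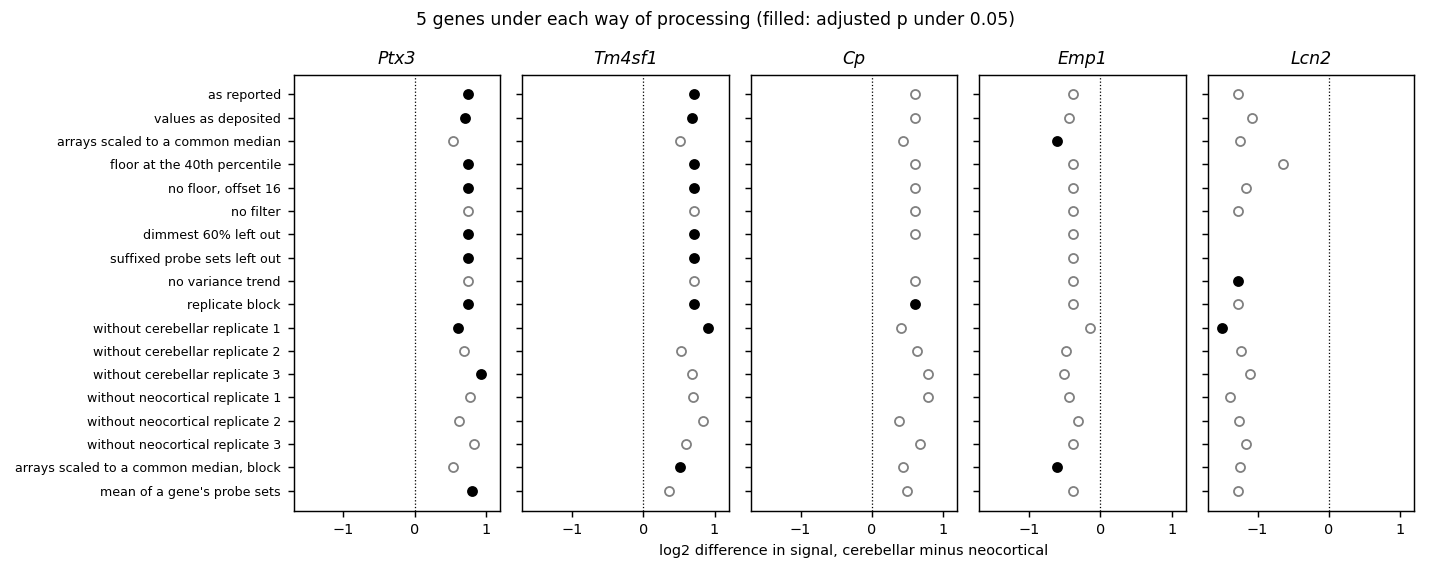
Fitted log2 difference of Ptx3, Tm4sf1, Cp, Emp1 and Lcn2 (x axis, cerebellar minus neocortical) under each way of processing the data or leaving out an array (y axis); filled points have an adjusted p under 0.05. No point crosses zero, while the fill of Ptx3 and Tm4sf1 changes with the arrays used.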

How the data were processed

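The authors deposited intensities on a linear scale, 1 for each probe set of an array. How probes were summarised is not given in the sources used here. Each array's 2% trimmed mean was 1500, but medians differed by up to 26.9%, and therefore quantile normalization was applied to the 45037 probe sets that are no controls. Signals under the floor of 62.2 (20th percentile) were raised to it, log2 was taken, and the 27022 probe sets with a mean at or above the 40th percentile were fitted with limma 3.58.1 in R 4.3.3 (variance trend, two-sided, Benjamini-Hochberg adjustment over all tested, threshold 0.05), a procedure tested on simulated data. Errors are SE of the fit or SD of normalized signal, and the number of arrays limits the precision.

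Genes were named from the platform annotation (1 symbol for 34945 probe sets, several for 932, none for 9160), with symbols updated through a GRCm38.p6 gene table, and each was represented by its brightest probe set. The members, lists, tests and alternatives were chosen with earlier results of these data known, and no test was made over a list alone. From each list the text names up to 3 non-members per direction past the threshold by lowest adjusted p, or the 2 brightest where under 2 passed, and for each member past the threshold the 2 genes with the highest Pearson r, of which 1 is not reported here.

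Arrays of both regions carry the numbers 1 to 3. After the group means were taken out, arrays of equal number correlated at 0.182, 0.186 and 0.101, and those of other pairs at -0.184 to 0.0261. The labels do not say that the numbers pair the arrays, and these weak correlations do not establish it. The model reported had no block, and one with the array number as a block is given where it changed a call or a count.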

Additional observations from a re-analysis of the deposited data

How the results depend on the processing

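All probe sets higher in cerebellar samples numbered 1337, and 821 under the common-median scaling, 577 with no filter on dim probe sets and 678 without the variance trend. Those lower numbered 1567, and 704 with no filter, 928 without the trend, and 3092 with the common-median scaling and the replicate block together, an alternative chosen after seeing the data. Leaving out 1 array gave 550 to 1242 higher and 668 to 1560 lower. Of the 2 member probe sets that were higher, none was left under the common-median scaling, with no filter or without the trend, and 8 passed with the replicate block. Leaving out 1 array gave 0 to 3 higher and 0 to 1 lower: 0 higher without cerebellar replicate 2 or any 1 neocortical array. Against 0 lower member probe sets, 1 was lower under the common-median scaling, with the block added to it, and without the trend. The cause was not tested.

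Genes are represented here by their brightest probe set, or by the mean of their probe sets in the alternative using it. On that basis the direction of the log2 difference held in every alternative with a value for Lcn2, Cp, Steap4, Ptx3, Tm4sf1, Emp1, Cd109 and Sphk1. A dimmer probe set of Cd109, 1425658_at (0.0817), turned to -0.118 under the common-median scaling and -0.0981 without cerebellar replicate 2. The dimmest of Tm4sf1, 1448069_at (-0.0324), turned to 0.161 as deposited and 0.591 without cerebellar replicate 1, among others. By brightest probe set the log2 difference of Cd44 turned to -0.148 under the common-median scaling, with or without the block. Leaving out 1 array gave -0.0256 (without cerebellar replicate 1) to 0.171. That of Amigo2 turned to -0.173 where the floor was the 40th percentile, and leaving out 1 array gave -0.362 (without neocortical replicate 1) to 0.423. Leaving out 1 array gave -0.352 to 0.152 (without cerebellar replicate 1) for Serping1. Msn turned to -0.0316 as deposited, -0.198 under the common-median scaling with or without the block, -0.0683 with the mean of its probe sets, and leaving out 1 array gave -0.0598 to 0.0517, below 0 without cerebellar replicate 2 (-0.0281) or neocortical replicate 2. Ptx3 passed in 9 and Tm4sf1 in 8 of 17 alternatives. Past the threshold were 17 other genes named from the lists, cell type markers aside, and 17 passed with the replicate block. Among the members and these 17 that block changed no other call than those of Cp and the second Ptx3 probe set. Of the 17, 13 passed under the common-median scaling, 5 without the trend and 1 (Ezr) with no filter. Leaving out neocortical replicate 1, 2 or 3 left 8, 8 and 7, and cerebellar replicate 1, 2 or 3 left 13, 15 and 11. Timp1, Osmr, Serpina3n, S100a10, Il1r1 and Aco1 passed whichever array was left out. Signal near the bacterial controls limits Lcn2, Sphk1, Amigo2 and Steap3.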
